A study of Mus musculus with 14 samples.

Results

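Ezh2 binding was compared between untreated 81K1 cells (control) and 81K1 cells with a Smarcb1 knockdown (Smarcb1 kd), using the 2 peak lists of that antibody. Every peak on chromosomes 1 to 19 and X was taken, which gave 6706 control peaks of 6729 lines and 5364 kd peaks of 5368 lines. Together they are 12070 of the 352805 regions on these chromosomes in the 10 lists of the series, which also covers Smarca4, H3K27me3, H3K4me3 and H3K27ac. 81K1 is a mouse embryonic stem cell (ESC) line derived from OG2 cells, a single clone in which doxycycline induces an shRNA against Smarcb1 from the Rosa26 locus. Smarcb1 is a core subunit of the esBAF chromatin remodelling complex, whose ATPase is Smarca4. Control cells received no doxycycline and kd cells received 1 µg/ml for 72 h. Cells with doxycycline but without the shRNA were not part of the ChIP-seq series, so the drug and the knockdown cannot be told apart. There was 1 library per condition. A peak present in 1 list therefore has no replicate check, no test between conditions was made, and all differences below are differences between 2 libraries.

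Ezh2 is the methyltransferase of Polycomb repressive complex 2 (PRC2), which places the repressive mark H3K27me3. In ESCs it is known to sit at CpG islands, stretches of DNA rich in CG dinucleotides at gene starts, and above all at silent genes for developmental transcription factors and signalling molecules. Many of these promoters also carry H3K4me3, the mark of gene starts, and are then called bivalent, whereas H3K27ac marks active promoters and enhancers. BAF remodellers are known to counteract Polycomb binding.

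The deposited score of a peak is a MACS2 value that was not scaled between libraries. It was used only to rank the peaks of 1 list, and a rank percentile of 100 stands for the highest score. Where scores of both lists are given side by side, they are not on 1 scale. The read depth and the enrichment of the 2 libraries are unknown here, and their part in the differences was not tested. The files hold no expression values, so the knockdown itself could not be checked from them. The study describes Western blots on the cells that later went into ChIP-seq, made to ensure a sufficient knockdown. Of 8 ESC marker genes, 7 had an H3K4me3 island within 1 kb of the TSS in both conditions, the exception being Esrrb, and none had an Ezh2 peak there. H3K27ac islands were present at 5 of the 8 in control and 7 in kd, and H3K27me3 islands at 2 in each condition.

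Peaks overlapping the other list by at least 1 bp were called shared, and the others control-only or kd-only. These classes differed in their DNA sequence. The central 200 bases of strong peaks of each class are given here from the plus strand of GRCm38 (mm10). The first is shared, the strongest of the kd list in Trank1 (chr9:111312062-111312261, score 2080). The next pair is kd-only, the strongest of that class, with equal scores of 613, in Inhbb, which encodes an activin and inhibin subunit (chr1:119421304-119421503), and near Pmepa1, which encodes a regulator of TGF-beta signalling (chr2:173275641-173275840). Capitals mark CG.
Trank1: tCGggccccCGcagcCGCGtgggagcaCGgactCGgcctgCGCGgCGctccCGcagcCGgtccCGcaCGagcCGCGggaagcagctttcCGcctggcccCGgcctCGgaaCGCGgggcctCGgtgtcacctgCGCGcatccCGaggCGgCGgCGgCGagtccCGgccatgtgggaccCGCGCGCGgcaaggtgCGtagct
Inhbb: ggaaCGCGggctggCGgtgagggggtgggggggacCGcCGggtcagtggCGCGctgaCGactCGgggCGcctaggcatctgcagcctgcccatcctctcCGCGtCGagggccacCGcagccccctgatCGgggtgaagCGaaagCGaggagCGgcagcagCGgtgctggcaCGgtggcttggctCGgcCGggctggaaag
Pmepa1: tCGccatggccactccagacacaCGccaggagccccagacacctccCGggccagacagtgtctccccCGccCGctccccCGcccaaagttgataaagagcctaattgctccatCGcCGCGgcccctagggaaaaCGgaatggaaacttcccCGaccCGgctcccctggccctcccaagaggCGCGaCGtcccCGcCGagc

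Strong control-only peaks looked different. Those at ranks 133.5 and 137 of the control list lay in an intron of Lmx1b (chr2:33628465-33628664, score 459) and 13288 bp from the TSS of Hcrtr1 (chr4:130152833-130153032, score 456). Capitals mark AGGAGGAG, a word chosen after these sequences were seen.
Lmx1b: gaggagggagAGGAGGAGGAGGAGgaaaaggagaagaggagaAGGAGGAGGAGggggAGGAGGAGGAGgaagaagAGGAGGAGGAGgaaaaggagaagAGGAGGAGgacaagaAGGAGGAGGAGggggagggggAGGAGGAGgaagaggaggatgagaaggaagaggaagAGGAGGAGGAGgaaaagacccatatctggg
Hcrtr1: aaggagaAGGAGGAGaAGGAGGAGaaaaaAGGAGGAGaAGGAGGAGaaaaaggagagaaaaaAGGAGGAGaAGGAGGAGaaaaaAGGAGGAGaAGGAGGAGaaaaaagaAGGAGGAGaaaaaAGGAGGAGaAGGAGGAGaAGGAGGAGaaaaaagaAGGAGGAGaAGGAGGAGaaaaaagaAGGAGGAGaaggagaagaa

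The sequences in Lmx1b and near Hcrtr1 were long purine tracts, runs of A and G on 1 strand with few or no CG. The longest unbroken purine run in these central 200 bases was 108 and 200 bases. AGGAGGAG or its reverse complement stood in the central 200 bases of 85.4% of control-only peaks (Wilson 95% interval 84.2 to 86.5, n = 3432). It stood in 6.38% of shared control peaks and 4.26% of kd-only peaks, against 2.02% of all 12796535 windows of 200 bases in the genome. A purine run of at least 30 bases on either strand, a feature that overlaps with this word, was found in 90.4% of control-only peaks (89.4 to 91.4). Of shared control peaks 4.03% had one, of kd-only peaks 0.905%, and of all windows 2.62%. The intervals cover counting error only.

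**Figure D1:**
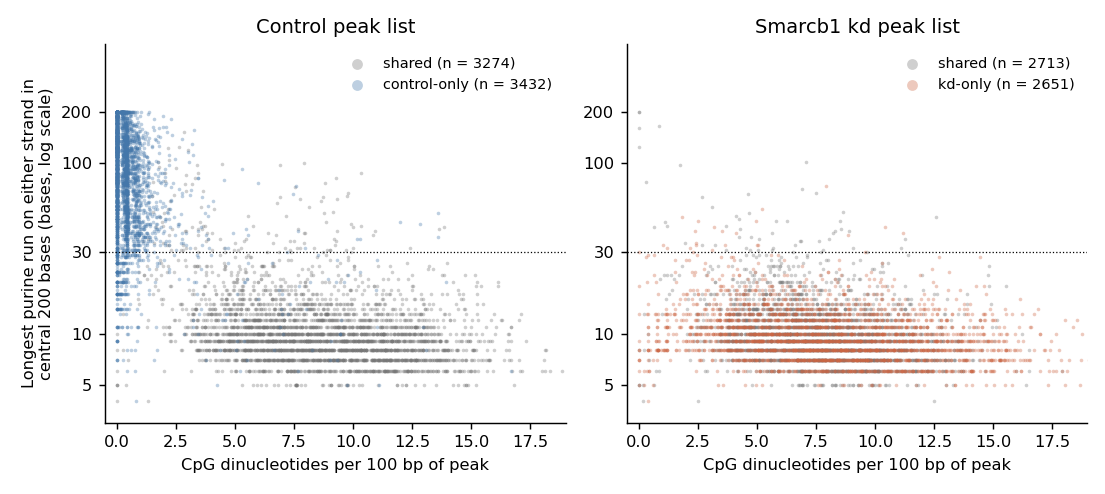
Each point is 1 Ezh2 peak of the control list (left) or the kd list (right). The x axis gives CG dinucleotides per 100 bp of peak, the y axis the longest purine run on either strand in the central 200 bases (log scale, dotted line at 30 bases). Control-only peaks sit at the upper left, at few CG and long runs, whereas shared and kd-only peaks share the same lower field.

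In CG content, kd-only peaks resembled shared peaks. The median was 8.402 CG per 100 bp in shared control peaks, 7.82 in kd-only peaks and 0.233 in control-only peaks. Over windows of 300 bases in the genome the median was 0.667 and the mean 0.834. With a GC content of at least 50% and an observed over expected CG ratio of at least 0.6, 83.9% of shared control peaks and 74.8% of kd-only peaks were CpG-rich, compared to 3.47% of control-only peaks. Only 0.843% of genome windows met these limits. The median share of bases in tandem repeats with units of up to 6 bases was 21.8% in control-only peaks and 0 in the shared and kd-only classes. Among the 454 control-only peaks with less than 50% of bases repeat-masked, 76.7% still had a purine run of at least 30 bases and 12.3% were CpG-rich.

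The classes also differed in place. Of kd-only peaks 51.6% (49.7 to 53.5) overlapped the window within 1 kb of the TSS of a protein-coding gene, as did 52.0% (50.3 to 53.8) of shared control peaks and 2.21% (1.77 to 2.76) of control-only peaks. Control-only peaks were intergenic in 52.9% and intronic in 40.2% of cases. Their median distance to the nearest protein-coding TSS was 47499 bp, compared to 866 bp for kd-only and 871 bp for shared control peaks. Shared peaks of the kd list were nearer to gene starts than kd-only peaks. Of them 57.2% (55.4 to 59.1) overlapped such a window, and their median distance was 224 bp. Control-only peaks were spread over the genome, with no more than 15 in any 1 Mb. Chromosome 8 held the most, 345, or 26.7 per 10 Mb, while the other chromosomes ranged from 4.03 per 10 Mb on X to 16.9 on chromosome 11.

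The other lists of the series, which the classes did not use, were overlapped with these peaks. Of kd-only peaks 94.1% (93.2 to 94.9) lay in an H3K27me3 island of either condition, close to the 98.7% (98.2 to 99.0) of shared control peaks. Of control-only peaks 38.1% (36.5 to 39.7) did, and 71.1% (66.2 to 75.5, n = 363) when peaks with a purine run of at least 30 bases were left out of both lists. The H3K27me3 islands covered 195 Mb in control and 145 Mb in kd, while chromosome 1 alone is 195 Mb long. The share of genome windows in these islands, or without any mark, was not computed. Smarca4 peaks of either condition overlapped 91.6% of shared control, 89.3% of kd-only and 3.29% of control-only peaks, and H3K4me3 islands overlapped 84.3%, 84.2% and 4.66% of them. No Smarca4 peak and no island of any mark was found at 54.4% of control-only peaks, compared to 0.754% of kd-only and 0.55% of shared control peaks. H3K27me3 and Smarca4 were immunoprecipitated by another laboratory (Active Motif) than Ezh2, H3K4me3 and H3K27ac.

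Most kd-only peaks lay where control cells already had H3K27me3 islands. Of the 2651 kd-only peaks, 93.1% overlapped a control H3K27me3 island and 90.5% a kd island. Control Smarca4 peaks overlapped 86.3% and kd Smarca4 peaks 82.9%. Islands of H3K4me3 overlapped 66.2% in control and 82.3% in kd, those of H3K27ac 5.7% and 17.1%. Shared kd peaks had smaller H3K27ac shares, 1.73% in control and 9.69% in kd. In the whole series the kd lists of H3K4me3 and H3K27ac were also longer, with 33128 islands against 25873 and 50700 against 38737, and those of H3K27me3 and Smarca4 shorter.

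A small group of kd peaks held telomere-type sequence. At least 3 consecutive copies of TTAGGG on either strand were present in 40 kd peaks, 27 of them kd-only, and in 16 control peaks, 3 of them control-only. This feature was also chosen after the peaks were seen. None of the 27 kd-only peaks lay within 1 kb of a protein-coding TSS. Of these 27, 25 overlapped a kd H3K4me3 island and 1 a control H3K4me3 island, and 24 overlapped a kd H3K27ac island compared to 3 in control. H3K27me3 islands of the kd overlapped 2 of them. By the sample labels, all 3 antibodies that gave these overlaps (Ezh2, H3K4me3 and H3K27ac) shared 1 background sample per condition. The part of that sample in the result was not tested.

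Next, the ranks of the peaks were compared. Of control peaks 48.8% (47.6 to 50.0) and of kd peaks 50.6% (49.2 to 51.9) were shared. The control share was 87.5% among peaks less than 50% repeat-masked and 89.5% without peaks with a purine run of at least 30 bases, while the kd share was 51.1% and 49.1%. In the kd list the shared share went down with rank, from 99.4% in the highest of 10 equal parts by score to 8.21% in the lowest. In the control list it was 91.8% in the highest part, 33.6% in the fifth and 59.9% in the lowest. Purine runs of at least 30 bases followed the opposite course there. They were found in 10.6% of the highest part, 64.03% of the fifth and 36.4% of the lowest. Kd-only peaks thus had a median rank percentile of 28.8 in their list, whereas control-only peaks were in the middle of theirs, at 45.6.

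**Figure D2:**
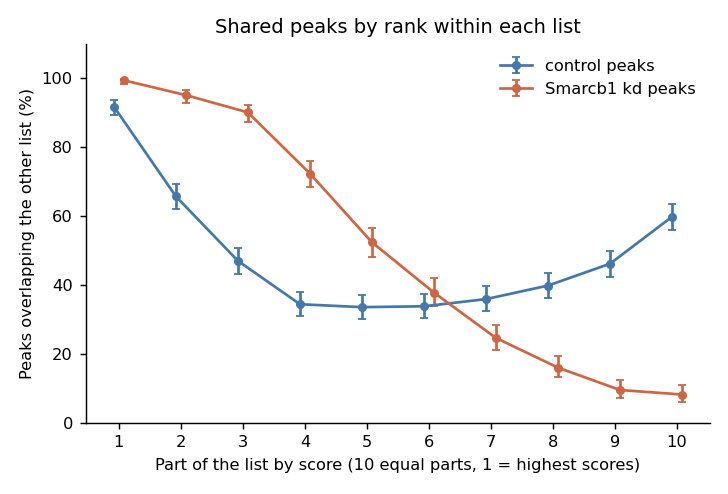
Share of peaks overlapping the other list (y axis, %) for each of 10 equal parts of a list by score (x axis, 1 is the highest). Bars are Wilson 95% intervals, which cover counting error only. The kd line goes down from 99.4% to 8.21%, the control line has its lowest point of 33.6% in the fifth part.

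At shared sites the peaks of the kd list were wider. In 2217 pairs, 1 control peak overlapped exactly 1 kd peak. Their median width was 582 bp in control and 1058 bp in kd, and the median of the width ratios was 1.59 (quartiles 1.27 and 2.15). The kd peak was the wider in 95.8% of pairs and contained the whole control peak in 82.8%. The centres of paired peaks lay a median of 81.5 bp apart, so the places were nearly the same. Another 452 kd peaks each covered 2 to 10 control peaks, 1043 in all, and had a median width of 2294 bp. The narrowest peak was 216 bp in control and 248 bp in kd, a limit that MACS2 sets by default from the fragment length it estimates for each library. The ranks of paired peaks were related, with a Spearman's rho of 0.67 across the 2217 pairs, which share 2 libraries and are not independent replicates. Pairs had a median rank percentile of 59.98 in the control list and 71.8 in the kd list. The 400 pairs at a control percentile of 90 or above had a median kd percentile of 93.7 (lowest 1.59, quartiles 87.5 and 97.2), and 13 of them were under 50 in kd. The 984 pairs under 50 in control had a median kd percentile of 57.7 (quartiles 40.6 and 70.6).

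**Figure D3:**
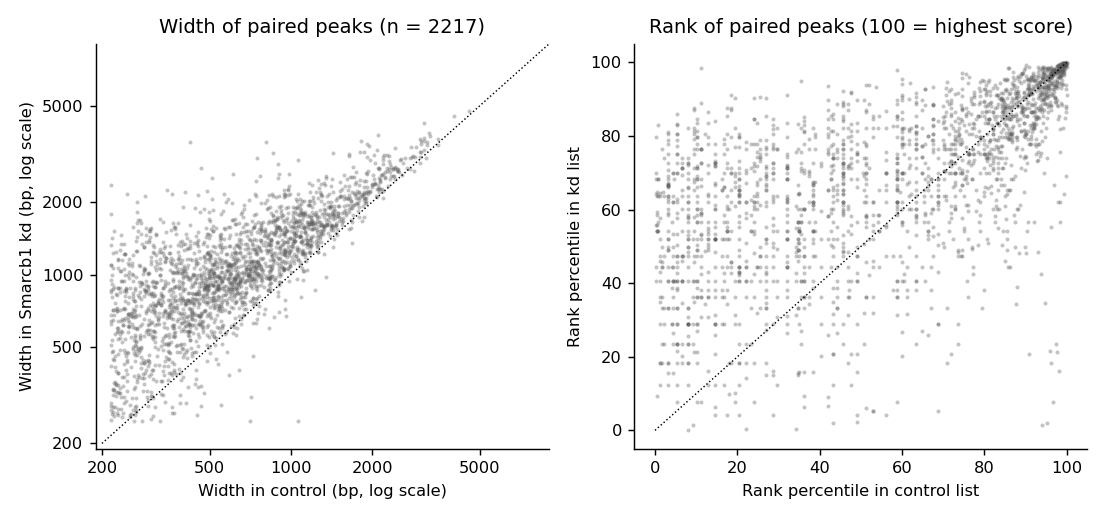
Each point is 1 of 2217 pairs of a control and a kd peak. Left, widths in bp (both axes log scale), where 95.8% of points lie above the dotted line of equal width. Right, rank percentiles in the own list (100 is the highest score), where most pairs of high control rank are also high in kd, 13 of the 400 at a control percentile of 90 or above lie under 50 in kd, and low control ranks spread over a wide range of kd ranks.

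Gene starts were then examined. Of 21755 protein-coding genes, 1564 (7.19%) had an Ezh2 peak within 1 kb of the TSS in control and 2770 (12.7%) in kd. A peak was present in both lists (kept) at 1502 genes (6.9%), gained in kd at 1268 (5.83%) and lost at 62 (0.285%), a log2 ratio of gained to lost of 4.35. The control and kd peaks of a kept gene need not overlap each other. The number of lost genes depended on the peaks and windows used. It was 29 among peaks less than 50% repeat-masked, 34 without peaks with a purine run, 155 in windows of 2.5 kb, 102 at every transcript start and 201 over all biotypes, with 1272 to 1634 gained. Thus 96.0% (94.95 to 96.9) of the genes bound in control were bound in kd, while 54.2% (52.4 to 56.1) of those bound in kd were bound in control. The 1268 gained genes rested on 1224 kd peaks. Where a window held several peaks, the one with the highest score is described. It was a shared kd peak at 32 of the gained genes. At 23 no kd-only peak was involved, since a kd peak that also overlapped a control peak outside the window reached into it. A control peak within 5 kb of the TSS was found for 6.94% of gained genes. Near the edge of the window, 23 genes had their kd peak between 900 and 1000 bp from the TSS and 16 between 1000 and 1100 bp. For control peaks these numbers were 25 and 14.

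Peaks at gained genes were of lower rank and narrower than those at kept genes. Their median kd rank percentile was 33.2 and their median width 547 bp. At kept genes the median rank percentile was 79.2 in kd and 71.3 in control, with widths of 1342 bp and 697 bp. Peaks at gained genes were CpG-rich in 92.0% of cases and peaks at kept genes in 94.2% (kd list). At the 62 lost genes, 17 peaks were CpG-rich and 44 had a purine run of at least 30 bases, with a median width of 272 bp. Such a run was found at 9 of the 1268 gained genes.

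Most gained genes carried the marks of bivalent promoters in control. Of the 1268, 96.7% had an H3K27me3 island in the window in control, 84.1% an H3K4me3 island, 80.8% both, and 98.7% a Smarca4 peak. In genes without an Ezh2 peak in either condition these shares were 25.9%, 52.7%, 11.99% and 57.8%. In kd cells, 96.3% of gained genes had H3K27me3 and 96.5% H3K4me3. H3K27ac was present at 5.91% of gained genes in control and 20.6% in kd, at 1.07% and 11.1% of kept genes, and at 17.95% and 33.5% of genes without a peak. The H3K27ac share was thus larger in kd for kept, gained, lost and unbound genes. Conversely, 7659 genes had an H3K27me3 island in the window in control, and 20.1% (19.2 to 20.98) of them had an Ezh2 peak in control and 35.6% (34.5 to 36.7) in kd.

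**Figure D4:**
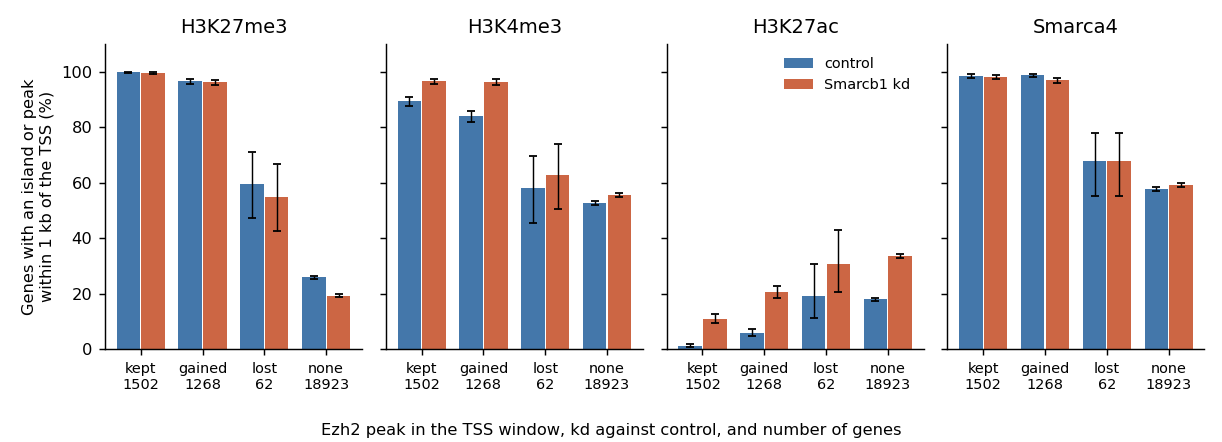
Share of genes (y axis, %) with an H3K27me3, H3K4me3 or H3K27ac island or a Smarca4 peak within 1 kb of the TSS, for genes whose Ezh2 peak was kept, gained, lost or absent in both (x axis, with the number of genes). Bars are control and Smarcb1 kd, whiskers Wilson 95% intervals that cover counting error only. Kept and gained genes are alike in H3K27me3 and Smarca4, both over 96% in each condition.

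The gained gene of highest rank was Bahd1, which encodes a heterochromatin protein. Its kd peak (chr2:118900453-118903016) had a score of 914 and rank 122 of 5364. The nearest control peak lay 1314 bp from the TSS, just outside the window. The same held for Ltk, a receptor tyrosine kinase gene, with a kd score of 675 and a control peak 1390 bp away. Inhbb and Pmepa1 followed, each at rank 395, and then Plekha2 at rank 511 and Sh3rf1, a scaffold of JNK signalling, at rank 541. The next were Tnrc18 (kd score 517), Rasgrp2 and Dusp4 (both 490), which encode an activator of Rap1 and a MAP kinase phosphatase, and Tead4 (464), a transcription factor of the Hippo pathway. The kd peaks of Tnrc18 and Dusp4 were shared as well, with control peaks 1902 and 1980 bp from the TSS, while those of the other 6 were kd-only. All 10 had an H3K27me3 island, an H3K4me3 island and a Smarca4 peak in control, and Pmepa1 alone also had H3K27ac. In kd, H3K27ac islands were listed at 6 of them, namely Bahd1, Inhbb, Pmepa1, Sh3rf1, Tnrc18 and Dusp4.

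Among lost genes, Sox10, a transcription factor of the neural crest, had the highest-ranking control peak (chr15:79163439-79164355, score 172, rank 930 of 6706). It was CpG-rich, and a kd peak lay 1059 bp from the TSS, so that this loss rests on the edge of the window. Of the lost genes named here, Hpse2 and Ggn also had a kd peak just outside, at 1172 and 1112 bp. The peak at Pak1, a kinase gene, came next (score 145, rank 1190.5, the mean of tied ranks), with the nearest kd peak 405094 bp from the TSS. The following 8 genes, with scores from 121 to 135, were Uros, Prpsap1, Hpse2, Olfr776, Coil, Ggn, 4931408C20Rik and Plin5. Among the peaks with less than 50% of bases repeat-masked, Sox10, Pak1 and Ggn were followed by AU015836 (score 100) and Slc7a6 (score 96). AGGAGGAG was present in the central 200 bases at Pak1, Ggn, AU015836 and Slc7a6, and not at Sox10.

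The kept genes of highest mean rank percentile over both lists, which are high in both by this choice, were Trank1 (control rank 7, kd rank 1), Grb10 (16 and 5), an imprinted adaptor of insulin receptor signalling, and Hand2 (27 and 2) and Foxf1 (4.5 and 25), transcription factors of heart and mesoderm development. Among kept genes whose highest-scoring peaks formed a pair, the difference towards a higher rank in kd was largest at Tox3, an HMG-box gene, with percentile 11.3 in control and 98.6 in kd, followed by Fam89a, Gm3667, Kctd8 and Galnt14. The Tox3 peak had a control score of 35 at a width of 636 bp and a kd score of 975 at 1311 bp. Towards a lower rank it was largest at Irf4, a transcription factor of lymphocytes, from percentile 96.1 to 18.2, next to Npr1, Iglon5, Tmprss2 and 2510009E07Rik. The Irf4 peak was 619 bp wide in control and 662 bp in kd.

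Gene lists were read against the share of all protein-coding genes bound, 7.19% in control and 12.7% in kd. Developmental transcription factors were bound in both conditions. Of 39 Hox genes 32 were kept and 4 gained, among them Hoxa7, Hoxb13 and Hoxa10, which is 92.3% bound in kd. The kd score was 165 at gained Hoxa7, while kept Hoxd8 had 559 in control and 1182 in kd, Hoxa4 620 and 1121, and Hoxd9 1370 and 1027. Of 104 other homeobox genes 83 were kept and 9 gained, among them Barhl1 (kd score 230, a shared peak with its control peak 1121 bp from the TSS), Hhex and Pdx1 (95 each). Kept Irx3 had a control peak of 2442 bp and a kd peak of 8076 bp. At kept genes the highest-scoring peak was wider in kd for 31 of 32 Hox genes and 81 of 83 other homeobox genes. These counts are near the 95.8% of all paired peaks. They are counts of genes, since neighbours such as Hoxd3 and Hoxd4 share a peak, and the kd peak of Alx1 was kd-only. All 8 Pax genes bound in control, of 9, were bound in kd, with none gained. Since the scores are not on 1 scale, ranks within each list are given as well. The median rank percentile at kept genes was 89.4 in control and 85.7 in kd for Hox genes. It was 93.6 and 92.4 for other homeobox genes and 78.7 and 63.1 for Pax genes, beside 71.3 and 79.2 for all kept genes.

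In the smaller families of transcription factors, kept genes also outnumbered gained genes. Of 44 forkhead genes 21 were kept and 3 gained (Foxi2, Foxp4 and Foxn4), and of 16 T-box genes 10 were kept and Tbx3 was gained. Kept Foxd1 had scores of 592 in control and 1412 in kd, and T (brachyury), a gene of mesoderm formation, 278 and 628. The scores at Eomes, a T-box gene of early mesoderm and endoderm, were 700 in control and 517 in kd, and its peak was 1327 bp wide in control and 3676 bp in kd. Of 6 Gata genes 3 were kept, with Gata6, a regulator of endoderm, at 81 and 1042, and Gata3 was gained. Of 13 lineage Sox genes 10 were kept, Sox11 and Sox8 were gained and Sox10 was lost. Among 39 developmental bHLH genes 18 were kept and 7 gained, led by Msc (kd score 361), Hand1 (202), Neurog3 (154) and Tcf21 (95). The kd peak of Hand1 was shared, with a control peak 1142 bp from the TSS. By rank, the median percentile at kept forkhead genes was 97.8 in control and 93.1 in kd. It was 90.2 and 75.6 for T-box genes and 85.6 and 77.8 for Sox genes. For Gata genes it was 83.9 and 90.2, and for bHLH genes 91.5 and 92.5.

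Among signalling pathways, the share of gained genes was above the 5.83% of all genes in the Wnt, Hedgehog and TGF-beta lists. In the FGF list it was 3.85%, 1 gene of 26, near the share of all genes. Of 43 Wnt pathway genes 26 were kept and 9 gained, 20.9% of the list. Of the 9, 6 encode Frizzled receptors, namely Fzd8 (kd score 438, width 2991 bp), Fzd7 (154), Fzd10 (105), Fzd9 (69), Fzd3 (62) and Fzd6 (52), and the others were Rspo4, Dkk2 and Sfrp2. The kd peak of Fzd8 was shared, with a control peak 1151 bp from the TSS. The strongest kept peak was at the ligand gene Wnt7b (616 in control, 1747 in kd). Of 13 Hedgehog pathway genes 4 were kept and 4 gained (30.8%). The kept ones were the ligands Ihh (661 and 1216) and Shh (123 and 464), the receptor Ptch1 (124 and 394) and Gas1 (29 and 175). The gained ones were the ligand Dhh (kd score 114), the co-receptor Boc (105), the inhibitor Hhip (104) and the transcription factor Gli3 (67). Among 44 TGF-beta and BMP ligands and antagonists 17 were kept, led by Bmp6 (545 and 1395), and 6 gained, Inhbb, Inha, Bmp4, Bmp8b, Fstl1 and Gdf11. Of 26 FGF ligands and receptors 11 were kept and Fgf11 was gained. By rank, the median percentile at kept Wnt pathway genes was 70.3 in control and 83.0 in kd. It was 77.3 and 85.4 for Hedgehog, 83.2 and 87.5 for TGF-beta and BMP, and 85.3 and 83.1 for FGF genes.

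Neural gene lists had between 45.5% and 54.9% of their members bound in kd. Of 71 axon guidance genes 30 were kept, 9 gained and 1 lost (Efnb1, control score 34). The gained ones included Slit1 (kd score 175), Efna2 (105), Sema3c (69) and Ephb3 (64). Of 101 neurotransmitter receptor genes 30 were kept and 16 gained, led by the glycine receptor gene Glrb (197), the nicotinic receptor gene Chrna5 (186) and Htr1f (134). Of 136 ion channel genes 46 were kept and 20 gained, led by the potassium channel genes Kcna1 (287, width 3392 bp), Kcnn1 (261), Kcnk4 (241) and Kcnk15 (208). The kd peak of Kcna1 was shared, with a control peak 1146 bp from the TSS, outside the window. Strong kept peaks were at Adrb1 (584 in control, 1362 in kd) and Kcnd3 (549 and 1168). By rank, the median percentile at kept axon guidance genes was 76.3 in control and 81.0 in kd. It was 72.8 and 71.3 for neurotransmitter receptor genes and 71.4 and 83.4 for ion channel genes.

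Adhesion and matrix genes were examined next. Of 35 cadherin and non-clustered protocadherin genes 16 were kept, among them Cdh22 (637 and 1578), and Pcdh18, Cdh3 and Cdh20 were gained. The median rank percentile of the 16 was 83.1 in control and 86.4 in kd. Of 57 clustered protocadherin genes Pcdhac2 was kept and 6 were gained, which is 12.3% bound in kd, near the share of all genes. These genes are related copies, and the filter on unique alignments may lose reads from them. Of 31 integrin genes Itga1 alone was kept, with a kd-only peak that overlapped no control peak. Another 6 were gained, Itga9 (kd score 134), Itga11 (95), Itgb3 and Itgb8 (86 each), Itga3 (43) and Itgb4 (37). Of 55 collagen and laminin genes 12 were kept, 5 gained and 1 lost (Col6a6, control score 87, width 266 bp).

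Among genes of the chromatin complexes, Ezh2, Smarcb1 and Smarca4 themselves had no Ezh2 peak at the TSS in either list. Of 12 PRC2 genes Phf19 was the single one bound, with a score of 88 in control and 368 in kd. Of 19 PRC1 genes 4 were kept, among them Pcgf5 (131 and 713), Bmi1 (257 and 374) and Cbx8 (87 and 284, from peaks that did not overlap each other). Cbx2, Phc2 and Yaf2 were gained with low kd scores of 47, 29 and 20. Of 30 BAF genes Smarca2 (95 and 451), which encodes the alternative ATPase, Bcl11b (93 and 425), Dpf3 (573 and 374) and Bcl11a (126 and 288) were kept and Dpf1 was gained (60). The control and kd peaks scored at Bcl11a did not overlap each other. All 3 bound Cdk inhibitor genes of 7 were kept, Cdkn1c (409 and 871), Cdkn2a (85 and 374) and Cdkn2c (91 and 276). By rank, the median percentile at kept PRC1 genes was 80.5 in control and 81.4 in kd, and at kept BAF genes 71.7 and 83.9. Bmi1 was at 93.2 and 82.3, and Dpf3 at 99.1 and 82.3.

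Of 23 pluripotency genes 2 gained a peak, Tbx3 (kd score 95, width 3788 bp) and Prdm14 (29), while Pou5f1, Sox2, Nanog and Klf4 had none in either list. Of 61 cell cycle genes Ccnd2 was kept and Ccna1 and Cdk6 were gained. None of the 75 ribosomal protein genes had a peak in either list. Of 26 germline genes 2 were kept and Tdrd5 was gained.

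**Figure D5:**
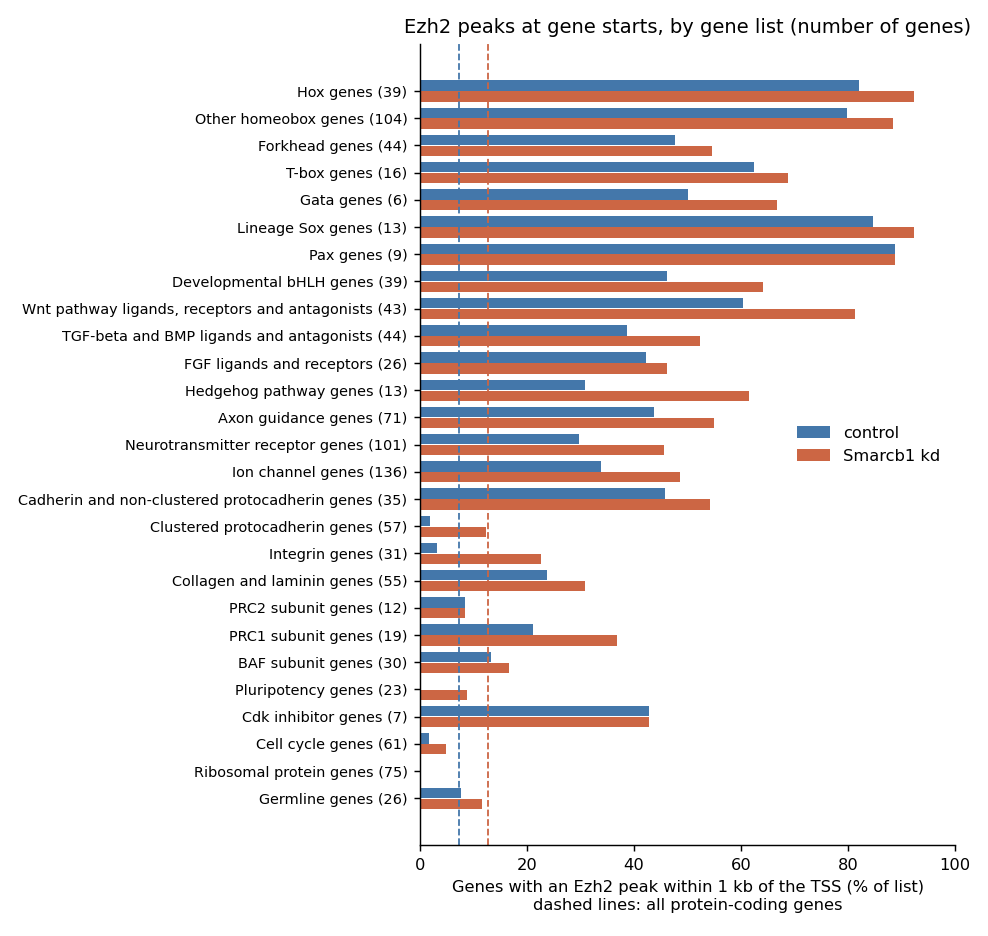
Share of genes (x axis, %) with an Ezh2 peak within 1 kb of the TSS in control and Smarcb1 kd, for each gene list (y axis, number of genes in brackets). Dashed lines give the share of all protein-coding genes, 7.19% in control and 12.7% in kd. The kd bar is the longer or equal in every list with a peak, and homeobox, Sox and Pax genes are near the right end in both conditions.

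Finally, the 4 Hox clusters show how binding was laid out over longer regions. With 1 kb added on either side of the genes, the Hoxa cluster (chr6:52154590-52261880) had 29 control and 33 kd peaks, which covered 25.3% and 41.9% of it. The Hoxb cluster had 29 and 38 peaks (14.5% and 21.8% covered), the Hoxc cluster 27 and 33 (13.6% and 27.7%) and the Hoxd cluster 25 and 28 (21.1% and 36.2%). The covered length was thus 1.5 to 2.03 times larger in kd. Over the whole lists it was also larger, 3.65 Mb in control and 5.36 Mb in kd for all peaks and 2.52 Mb and 3.89 Mb for shared peaks. Outside the Hox clusters, the kd peaks over the most control peaks included 4 on chromosome 8, 8182 to 13368 bp wide and nearest Gas8 and Rhou. These 4 covered 6 to 10 control peaks each. All were at least 50% repeat-masked, since the widest kd peak below that limit was 8084 bp. Others lay near Ebf2 (6414 bp over 6 control peaks), Lbx1 (7217 bp over 5) and Otx1 (4658 bp over 5), genes of developmental transcription factors.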

How the data were processed

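ChIP-seq peak lists of Ezh2 from untreated and doxycycline-treated 81K1 cells were used, with 1 library each. According to the methods and labels, the authors trimmed the reads (Trim Galore), aligned them to mm10 with Bowtie2, kept unique alignments with SAMtools 1.9 and called each library on its own. The score deposited with each Ezh2 and Smarca4 peak is the authors' MACS2 score, and the p-value deposited with each histone island is the authors' SICER p-value, which was not used further. The methods name the input as background, whereas the peak names and the labels of these samples name IgG. Which was used is not certain here. Reads from near-identical repeats are lost by the filter on unique alignments, and peak number, width and score all depend on depth and enrichment, which are unknown here.

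Peaks on chromosomes 1 to 19 and X were kept, which left out 23 control and 4 kd lines. Overlaps required 1 bp. TSS windows ran 1000 bp to either side of the gene start of GENCODE M21 genes on GRCm38, the build of the files, whereas the study used a later release. Ranks used average ranks for ties. Sequences were read from the RefSeq copy of that build, where lower case marks repeat-masked bases. Steps were run in Python 3.11.15 with pandas 2.3.3 and numpy 2.4.6, and the overlap and window steps were checked on simulated lists. Shares have Wilson 95% intervals (counting error only).

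Members, gene lists and tests were chosen with earlier results of these data known. Named genes are the 10 highest-ranking gained and lost genes, the 5 highest lost genes under 50% repeat-masked, the 5 highest kept genes, the 5 kept genes with the largest difference in rank percentile each way (highest-scoring peaks paired 1 to 1), up to 4 gained, lost and kept genes per list, and the bound PRC2, BAF and Cdk inhibitor genes. The bound PRC1 genes, all gained Frizzled, Hedgehog and integrin genes, all gained TGF-beta genes and Eomes were named after their values were seen. Purine runs, AGGAGGAG and TTAGGG were also chosen then. Some genes and sequences that these rules select are not reported here. Alternatives were a score of at least 50, lists of equal length, peaks under 50% repeat-masked, merging within 1 kb, 50% coverage, own-condition islands, other gene windows and, chosen with the data in view, omission of peaks with a purine run.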

Additional observations from a re-analysis of the deposited data

Results flagged for a closer look

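Outside chromosomes 1 to 19 and X, the control list held 23 further Ezh2 peaks and the kd list 4, on Y or on scaffolds. They were above the limit of 3 that a count of 0 allows, and no comparison used them.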

How the results depend on the processing

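No library could be left out, since each condition had 1, and no replicate block or pairing was possible for the same reason. The alternatives kept more gained than lost genes throughout, with 1256 to 1634 gained and 29 to 201 lost. The share of control peaks shared, 48.8%, was 47.5% at a score of at least 50, 42.5% with peaks merged within 1 kb, 87.5% for peaks less than 50% repeat-masked and 89.5% without peaks with a purine run of at least 30 bases. The share of kd peaks shared, 50.6%, was 46.1% at that score, 41.7% with lists of equal length, 52.8% with merged peaks, 36.04% when 50% of the peak had to be covered and 49.1% without purine runs. The log2 ratio of gained to lost genes, 4.35, was 4.94 with lists of equal length, 5.45 with 29 lost genes among peaks less than 50% masked, and 5.24 with 34 lost genes without purine runs. It was 3.07 with 155 lost genes in windows of 2.5 kb, 3.76 with 102 at every transcript start and 3.02 with 201 over all biotypes. The median width ratio was 1.54 at a score of at least 50. Of control-only peaks, 38.1% in an H3K27me3 island, 29.2% lay in islands of their own condition, 41.3% of those less than 50% masked and 71.1% of those without purine runs lay in either. Of kd-only peaks, 94.1% in an island, the shares were 90.5% for the own condition, 96.3% at that score and 96.7% below 50% masked. The other alternatives stayed within counting error, or within 1.5 times for counts. The cause of these differences was not tested. Depth limits the lists themselves, since a peak absent from a list may be below the limit of the caller, and neither list gives the reads behind a site.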

Other observations

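A group of 4 wide kd peaks stood side by side on chromosome 8, between 123548560 and 123618000. They were 8182 to 13368 bp wide and covered 6 to 10 control peaks each. All 4 were at least 50% repeat-masked, since no kd peak below that limit was wider than 8084 bp. The nearest protein-coding TSS was that of Gas8 for 2 of them and of Rhou for the others. The ratio of kd to control peaks per chromosome was 0.563 on chromosome 8, compared to 0.683 on chromosome 16 and 0.943 on chromosome 19, the ends of the range over the other chromosomes. On chromosome 8, 295 of the 345 control-only peaks held AGGAGGAG in their central 200 bases. The most control-only peaks in 1 Mb, 15, were on chromosome 6 from 47 Mb on, and the most kd-only peaks, 19, on chromosome 11 from 96 Mb on, at the Hoxb cluster.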
